A study of Drosophila melanogaster with 24 samples.

Results

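Heterochromatin and position-effect variegation genes were followed across mesodermal cells of 6 *Drosophila melanogaster* genotypes. The genes are *Su(var)205*, *HP1b*, *HP1c*, *Su(var)3-9*, *egg*, *G9a*, *Su(var)3-7*, *Su(var)2-HP2* and *Su(var)2-10*. They were taken by name as a group of known function, with no threshold on a measured value, and are 9 of the 17476 genes in the count table. The comparison was made because *jumu*, which encodes a forkhead (Fox) transcription factor, is itself known as a modifier of variegation. Cells of stage 11 to early stage 12 embryos that expressed GFP under *twi-GAL4*, a driver active in Twist-expressing mesoderm, were sorted by flow cytometry, and their total RNA was sequenced in 4 biological replicates per genotype, 24 samples in all.

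Cells of *jumu* loss carried twi-GAL4 Df(3R)Exel6157 over UAS-2EGFP Df(3R)Exel6157 and so were homozygous for a deficiency that takes out *jumu*. Cells of *CHES-1-like* loss, which lack this related Fox gene, carried Df(1)CHES-1-like1 together with the twi-GAL4 UAS-2EGFP/+ chromosomes. The double loss combined both lesions. Overexpressing cells carried UAS-jumu or UAS-CHES-1-like opposite the twi-GAL4 UAS-2EGFP chromosome, so that the added Fox RNA was driven only where *twi-GAL4* is active. Wild-type cells came from twi-GAL4 UAS-2EGFP/+ embryos, and all 6 genotypes therefore carried the driver and the reporter. A deficiency is a missing stretch of chromosome, so any other genes within it would be absent too. The extent of the 2 deficiencies was not examined here.

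Heterochromatin is the compact, largely silent chromatin around centromeres and on most of the fourth chromosome of the fly. Histone methyltransferases place methyl groups on lysine 9 of histone H3, HP1 proteins bind this mark through a chromodomain, and further proteins bound to HP1 help the compact state to spread. When a gene is moved next to heterochromatin it is silenced in some cells and not in others, which gives a mosaic called position-effect variegation. Mutations in Su(var) genes, the suppressors of variegation, relieve this silencing, and many of the genes described here were found in that way.

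All 9 genes were expressed in the sorted mesodermal cells, and all 9 passed the filter on low expression in every comparison. Levels are given as CPM, the count of a gene relative to the library total after TMM scaling over the 24 samples, and per kilobase of annotated exon where genes are compared with each other. In wild-type cells *Su(var)205* stood far above the rest at 179 CPM per kilobase. *Su(var)2-10* (20.04), *HP1b* (19.4), *HP1c* (19.0), *Su(var)3-9* (16.6) and *Su(var)2-HP2* (15.5 CPM per kilobase) lay close together, *Su(var)3-7* (11.6) and *G9a* (9.64) were lower, and *egg* had the lowest level at 5.80 CPM per kilobase.

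The genes lie apart from each other on Release 6 of the genome. *Su(var)205* is at chr2L:8209626-8211122 on the minus strand, *HP1b* at chrX:9081063-9082746 on the plus strand and *HP1c* at chr3R:22745620-22746605 on the plus strand. *Su(var)3-9* is at chr3R:15259864-15263458 on the minus strand, *egg* at chr2R:24775534-24779901 on the minus strand and *G9a* at chrX:245978-254650 on the plus strand. *Su(var)3-7* is at chr3R:13264364-13270038 on the plus strand, 2.90 Mb from *jumu*. *Su(var)2-HP2* is at chr2R:14607154-14618118 on the minus strand and *Su(var)2-10* at chr2R:9116122-9122000 on the plus strand. *HP1b* is the gene nearest to *CHES-1-like*, at 1.37 Mb.

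Exons of 5 of the genes overlap those of a neighbour, and since use of the strand in counting was not given in the sources used here, their counts are uncertain to that extent. *Su(var)3-9* starts with *eIF-2gamma*, a translation initiation factor gene on the same strand, and shares 352 exonic bases with it, 14.8% of its own. *eIF-2gamma* did not pass an FDR of 0.1 in any comparison with wild type, its log2 fold changes lying between -0.05 and 0.14. On the opposite strand, *HP1c* overlaps *CG17141* by 160 bases, *Su(var)3-7* overlaps *CG8449* by 693, *egg* overlaps the noncoding *CR44067* by 629 and *Su(var)205* overlaps *CG8419* by 12. *CR44067* had at most 2 counts in any sample. *HP1b*, *G9a*, *Su(var)2-HP2* and *Su(var)2-10* overlap no annotated gene.

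Total counts ran between 15197022 and 72519855 per sample, and the 9 genes took 0.0477% to 0.102% of them. Each Fox gene was lower in its loss genotypes and higher in its overexpression, but *jumu* RNA was not absent from *jumu* loss. *jumu* averaged 29.9 ± 1.94 CPM in *jumu* loss and 21.9 ± 1.87 CPM in double loss, against 122 ± 3.50 CPM in wild type (SD, n = 4 each), and reached 676 ± 32.4 CPM when overexpressed. The *jumu*-loss samples held 472 to 2091 *jumu* counts each, and 24.4% of the wild-type level remained in *jumu* loss and 17.9% in double loss, although the labelled deficiency is homozygous. The source of these counts was not tested. *CHES-1-like* averaged 1.14 ± 0.487 CPM in *CHES-1-like* loss and 1.20 ± 1.05 CPM in double loss, against 156 ± 3.41 CPM in wild type, and 1532 ± 160 CPM when overexpressed. The summed level of 10 mesoderm markers was 987 to 1595 CPM over all samples, and none of these markers was at 0 in any genotype. Markers of other cell types were measured in every genotype too, with none at 0, and their sums are given beside the members below.

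Each genotype was compared with wild type by edgeR's quasi-likelihood test on the counts, with p-values adjusted over all genes (FDR). Below, a gene "rose" or "fell" where its FDR was below 0.1. The relaxed criteria of the study ask in addition for a log2 fold change beyond 0.5 or -0.5. The 5 comparisons share the same 4 wild-type samples and are not independent of each other. The spread is between 4 replicates that the labels call biological. In bulk RNA, fewer cells of a type and less RNA per cell cannot be told apart.

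No member changed by more than 1.88-fold. Of the 45 comparisons of a gene in a genotype with wild type, 25 passed an FDR of 0.1, 11 of them higher and 14 lower, where 30.1% to 52.8% of all genes passed in each comparison, and 5 met the relaxed criteria, all 5 lower. Those 5 were *G9a*, *Su(var)205* and *Su(var)3-9* in *CHES-1-like* overexpression, where 33.1% of all 12233 tested genes met the criteria, and *egg* and *Su(var)2-HP2* in double loss, where 24.7% did. Between the lowest and the highest genotype mean, *egg* spanned 2.16-fold and *G9a* 2.07-fold, *Su(var)205* 1.86-fold and *Su(var)2-HP2* 1.84-fold. *Su(var)2-10* spanned least, at 1.35-fold.

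**Figure D1:**
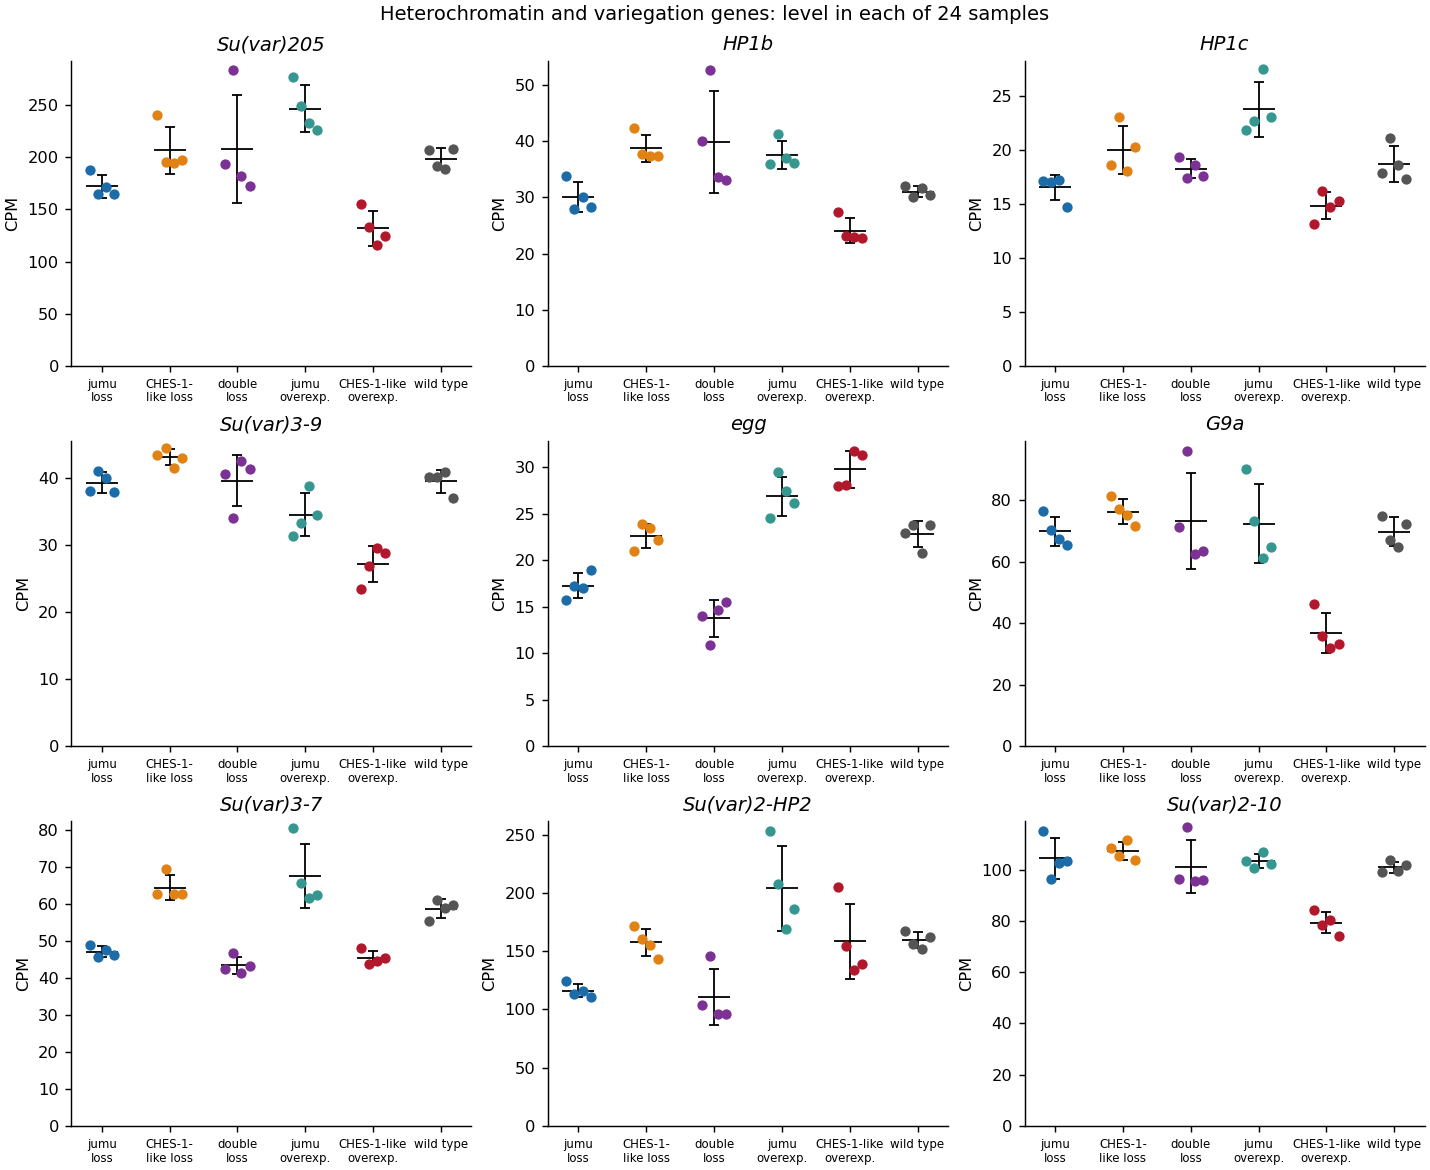
TMM-scaled CPM of the 9 genes in each sample, 1 panel per gene, with *jumu* loss, *CHES-1-like* loss, double loss, *jumu* overexpression, *CHES-1-like* overexpression and wild type from left to right. Points are the 4 replicates in number order, the bar is the mean and the error bar the SD. *G9a* is at 32.0 to 46.4 CPM in *CHES-1-like* overexpression, below each of the other 20 samples, and *egg* is lowest in double loss, at 10.9 to 15.5 CPM.

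*Su(var)205* encodes HP1a, the founding HP1 protein and the main reader of methylated H3 lysine 9 in pericentric heterochromatin. It had 187, 164, 171 and 164 CPM in *jumu* loss, 277, 248, 233 and 226 CPM in *jumu* overexpression and 155, 133, 115 and 125 CPM in *CHES-1-like* overexpression, against 206, 191, 188 and 207 CPM in wild type. The *jumu* overexpression samples all lay above wild type, and the samples of *jumu* loss and *CHES-1-like* overexpression all lay below it. *Su(var)205* thus fell in *jumu* loss by 0.19 on the log2 scale (SE 0.052, FDR 0.0065), rose in *jumu* overexpression (log2 fold change 0.32, SE 0.077, FDR 0.0084) and fell by 0.57 in *CHES-1-like* overexpression (SE 0.091, FDR 0.00018). In 1 fit of all 24 samples the call in *jumu* loss was lost (log2 fold change -0.21, FDR 0.28).

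Both other conditions left *Su(var)205* within reach of wild type. It had 240, 195, 194 and 197 CPM in *CHES-1-like* loss, where replicate 1 alone lay above the wild-type samples. It had 193, 283, 182 and 172 CPM in double loss, where replicate 2 stood far above the other 3 and carried the mean to 208 CPM, against 198 CPM in wild type. The log2 fold change in double loss was 0.07 (FDR 0.80). Without double-loss replicate 2 it was -0.12 with an FDR of 0.039, so that 1 library decided the sign.

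*HP1b* and *HP1c* encode paralogues of HP1a that are also found in euchromatin. *HP1b* had 42.4, 37.7, 37.4 and 37.4 CPM in *CHES-1-like* loss, 40.0, 52.7, 33.5 and 33.2 CPM in double loss, 35.9, 41.3, 37.0 and 36.1 CPM in *jumu* overexpression and 27.5, 23.2, 22.9 and 22.8 CPM in *CHES-1-like* overexpression, against 32.0, 30.04, 31.7 and 30.4 CPM in wild type. None of these 4 genotypes overlapped wild type. *HP1b* rose in *CHES-1-like* loss (log2 fold change 0.34, SE 0.059, FDR 0.00010), in double loss (0.36, SE 0.13, FDR 0.072) and in *jumu* overexpression (0.28, SE 0.065, FDR 0.0063), and fell by 0.35 in *CHES-1-like* overexpression (SE 0.075, FDR 0.0020). The call in double loss was lost when double-loss replicate 1 or any 1 of the wild-type samples was left out, at FDRs of 0.12 to 0.16. In *jumu* loss, at 30.02 ± 2.66 CPM against 31.0 ± 0.959 CPM in wild type (SD, n = 4 each), the log2 fold change was -0.03, with an approximate 95% interval of -0.14 to 0.09.

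*HP1c* moved in the overexpression genotypes. It had 21.8, 22.7, 27.5 and 23.0 CPM in *jumu* overexpression and 13.2, 16.2, 14.7 and 15.3 CPM in *CHES-1-like* overexpression, against 17.9, 21.1, 18.6 and 17.3 CPM in wild type. Neither set of 4 overlapped the wild-type samples. *HP1c* rose in *jumu* overexpression (log2 fold change 0.36, SE 0.087, FDR 0.0091) and fell by 0.31 in *CHES-1-like* overexpression (SE 0.084, FDR 0.0098). In *jumu* loss, at 14.8 to 17.3 CPM, it missed the threshold (log2 fold change -0.17, FDR 0.102), although all 4 samples were below the lowest wild-type sample, and it passed at FDRs of 0.058 to 0.095 without *jumu*-loss replicate 1 or 3 or without wild-type replicate 1 or 4. *CHES-1-like* loss and double loss overlapped wild type.

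The methyltransferase genes did not move together. *egg* encodes the fly SETDB1 enzyme, which methylates H3 lysine 9 on the fourth chromosome and in the germ line. It had 15.7, 17.3, 17.0 and 19.0 CPM in *jumu* loss and 14.0, 10.9, 14.6 and 15.5 CPM in double loss, against 23.0, 23.8, 20.8 and 23.8 CPM in wild type. It had 24.5, 29.5, 27.4 and 26.1 CPM in *jumu* overexpression and 28.0, 28.1, 31.7 and 31.3 CPM in *CHES-1-like* overexpression. All samples of *jumu* loss and double loss lay below wild type, all samples of both overexpressions lay above it, and double loss lay wholly below *jumu* loss.

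*egg* fell by 0.40 in *jumu* loss (SE 0.066, FDR 5.7e-05) and by 0.72 in double loss (SE 0.11, FDR 0.00078). The double-loss level was 0.608 times that of wild type and met the relaxed criteria with each sample left out in turn. It rose in *jumu* overexpression (log2 fold change 0.24, SE 0.073, FDR 0.032) and in *CHES-1-like* overexpression (0.40, SE 0.070, FDR 0.00037), where it was the one member that rose. The call in *jumu* overexpression was lost without *jumu*-overexpression replicate 2 (FDR 0.114) or wild-type replicate 3 (FDR 0.113). In *CHES-1-like* loss *egg* had 21.0 to 23.9 CPM, and its log2 fold change of -0.02 had an approximate 95% interval of -0.15 to 0.12.

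*G9a*, whose product methylates H3 lysine 9 mainly outside the pericentric regions and is dispensable for viability in the fly, changed most in *CHES-1-like* overexpression. It had 46.4, 36.0, 32.0 and 33.2 CPM there, against 74.9, 67.2, 64.6 and 72.4 CPM in wild type. The highest overexpressing sample was well below the lowest wild-type sample. *G9a* fell by 0.91 on the log2 scale, to 0.533 times the wild-type level (SE 0.11, FDR 1.0e-05), and by 0.85 to 1.06 with each sample left out in turn. In *jumu* loss it stayed at 65.3 to 76.4 CPM, a log2 fold change of 0.01 with an approximate 95% interval of -0.10 to 0.12. Double loss (62.4 to 96.0 CPM) and *jumu* overexpression (61.2 to 90.0 CPM) spread over more than the wild-type range and did not pass.

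*Su(var)3-9*, the gene of the main methyltransferase of pericentric heterochromatin, also changed most in *CHES-1-like* overexpression. It had 23.5, 27.0, 29.6 and 28.8 CPM there, against 40.1, 40.2, 40.9 and 37.0 CPM in wild type. The groups did not overlap, and *Su(var)3-9* fell by 0.51 (SE 0.074, FDR 7.3e-05). This value is less than 1 SE past the relaxed criteria, and without *CHES-1-like*-overexpression replicate 1 it was -0.47. The other genotypes overlapped its wild-type range, except *CHES-1-like* loss, at 43.4, 44.5, 41.6 and 43.0 CPM, where it rose slightly (log2 fold change 0.14, SE 0.056, FDR 0.071). In *jumu* overexpression it had 31.4, 33.4, 38.9 and 34.5 CPM and a log2 fold change of -0.18 (FDR 0.103), which passed without *jumu*-overexpression replicate 3 (FDR 0.012). In *jumu* loss the log2 fold change was 0.005, with an approximate 95% interval of -0.10 to 0.11.

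The genes of 2 HP1a partners fell with the loss of *jumu*. *Su(var)2-HP2* encodes a large protein that binds the chromoshadow domain of HP1a. It had 124, 113, 116 and 111 CPM in *jumu* loss and 104, 146, 96.0 and 96.5 CPM in double loss, against 167, 156, 152 and 162 CPM in wild type. All 8 samples of *jumu* loss and double loss lay below all 4 wild-type samples. *Su(var)2-HP2* fell by 0.44 in *jumu* loss (SE 0.048, FDR 2.3e-07) and by 0.52 in double loss (SE 0.13, FDR 0.011). The double-loss value is less than 1 SE past the relaxed criteria. It was -0.46 to -0.49 without double-loss replicate 1, 3 or 4 or wild-type replicate 1, and -0.69 without double-loss replicate 2.

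With the Fox genes in excess, *Su(var)2-HP2* had 253, 207, 169 and 186 CPM in *jumu* overexpression, and it rose there (log2 fold change 0.36, SE 0.10, FDR 0.022), its lowest sample just above the highest wild-type sample. It had 205, 155, 134 and 139 CPM in *CHES-1-like* overexpression, where replicate 1 lay above wild type, replicates 3 and 4 lay below it, and the log2 fold change was 0.01 (FDR 1). Without that replicate 1 the log2 fold change was -0.17 with an FDR of 0.013. In *CHES-1-like* loss it was 0.002, with an approximate 95% interval of -0.11 to 0.11.

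*Su(var)3-7* encodes a zinc-finger protein that binds HP1a and acts with it in a dose-dependent way. It had 49.1, 45.7, 47.7 and 46.3 CPM in *jumu* loss, 42.5, 46.8, 41.3 and 43.3 CPM in double loss and 48.2, 43.9, 44.6 and 45.6 CPM in *CHES-1-like* overexpression, against 55.4, 61.1, 59.0 and 59.9 CPM in wild type. These 12 samples all lay below wild type. *Su(var)3-7* fell by 0.30 in *jumu* loss (SE 0.049, FDR 4.4e-05), by 0.43 in double loss (SE 0.071, FDR 0.0011) and by 0.35 in *CHES-1-like* overexpression (SE 0.064, FDR 0.00055).

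The remaining genotypes had higher *Su(var)3-7* levels than wild type by smaller margins. In *CHES-1-like* loss it had 62.9, 69.4, 62.8 and 62.8 CPM and rose slightly (log2 fold change 0.15, SE 0.056, FDR 0.065). In *jumu* overexpression it had 80.5, 65.9, 61.7 and 62.5 CPM, all above wild type, with a log2 fold change of 0.21 that missed the threshold (SE 0.083, FDR 0.107) and passed without *jumu*-overexpression replicate 3 (FDR 0.048) or 4 (FDR 0.091).

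*Su(var)2-10* encodes the PIAS-family ligase that attaches the small modifier SUMO to target proteins. It had 84.1, 78.6, 80.4 and 74.1 CPM in *CHES-1-like* overexpression, against 99.0, 104, 99.4 and 102 CPM in wild type. All 4 overexpressing samples lay below wild type, and *Su(var)2-10* fell by 0.33 (SE 0.064, FDR 0.00090). In the other 4 genotypes its means lay between 101 and 107 CPM and it passed no test.

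**Figure D2:**
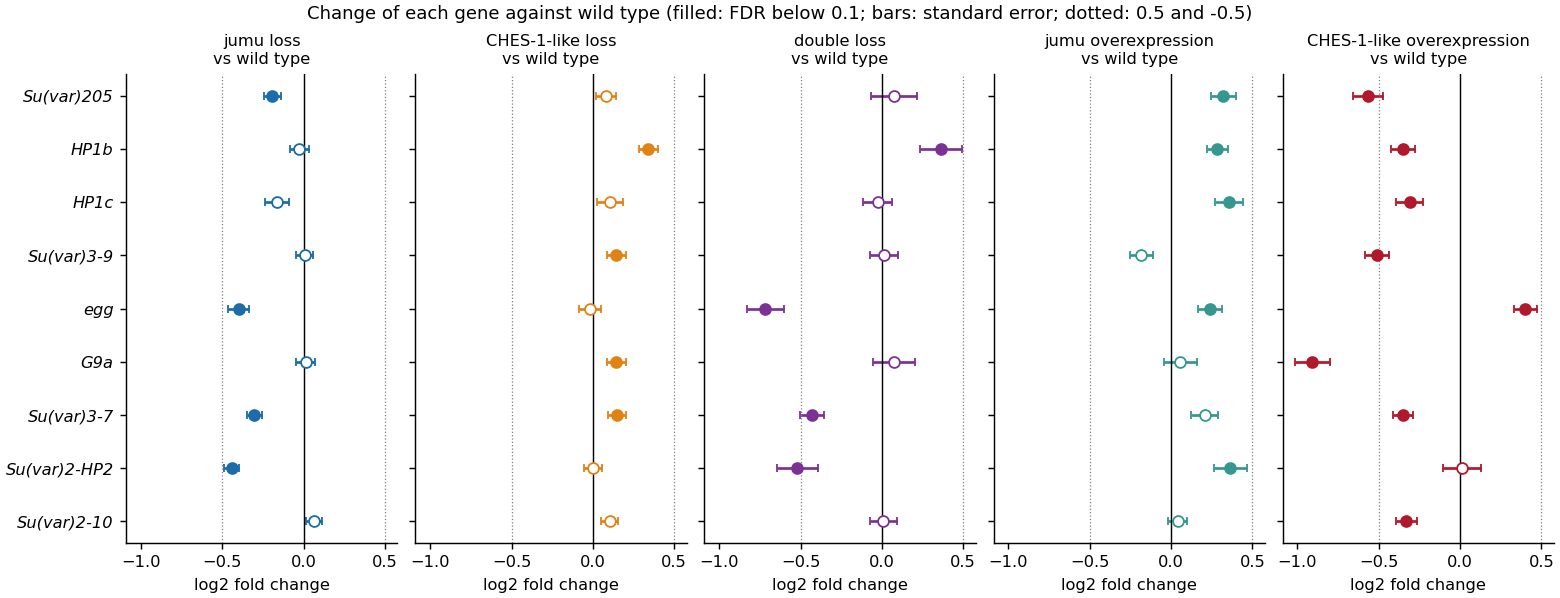
Log2 fold change of the 9 genes in each genotype against wild type, 1 panel per genotype. Points are the estimates and bars their SE. Filled points have an FDR below 0.1 and dotted lines mark 0.5 and -0.5. Only *egg* lies to the right of 0 with a filled point in *CHES-1-like* overexpression, at 0.40, where *G9a* is at -0.91.

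In *jumu* loss, 4 genes fell (*Su(var)2-HP2*, *egg*, *Su(var)3-7* and *Su(var)205*) and none rose, and none met the relaxed criteria. These 4 of 9 compare with 43.8% of all 12233 genes tested at the same FDR in either direction and 21.6% in the lower direction, and the 0 of 9 at the relaxed criteria with 19.4%. The share of members called in either direction was near the background. The median log2 fold change of the 9 was -0.17, against -0.00 for all genes. In 5 of the 9 genes every *jumu*-loss sample lay below every wild-type sample, and 36.1% of all genes were separated in either direction.

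In *CHES-1-like* loss, 4 genes rose (*HP1b*, *Su(var)3-7*, *Su(var)3-9* and *G9a*) and none fell, against a background of 36.3% in either direction and 20.1% higher. None met the relaxed criteria (background 15.4%). The median was 0.10, against -0.01 for all genes. In 4 of the 9 genes the samples lay wholly above wild type, with 29.9% of all genes separated. These were *HP1b*, *Su(var)3-7*, *Su(var)3-9* and, narrowly, *Su(var)2-10* (lowest sample 103.56 CPM, highest wild-type sample 103.54 CPM), while *G9a* overlapped wild type. Only *HP1b* kept its call with each sample left out in turn. *Su(var)3-9*, *Su(var)3-7* and *G9a* each lost theirs without *CHES-1-like*-loss replicate 2 or 3, at FDRs of 0.11 to 0.28, and without several of the other samples. All 3 also lost their calls with RLE factors (FDRs of 0.12 to 0.13), with upper-quartile factors (0.32 to 0.36) and in 1 fit of all 24 samples (0.29 to 0.62), and had the opposite sign with library totals.

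In double loss, *egg*, *Su(var)2-HP2* and *Su(var)3-7* fell and *HP1b* rose, against a background of 37.9% in either direction, 18.8% lower and 19.1% higher. The 2 of 9 that met the relaxed criteria, both lower, compare with 24.7% of all genes in either direction and 12.8% lower. The median was 0.01, against 0.02 for all genes, and 4 of the 9 were separated from wild type, with 37.0% of all genes. Standard errors were larger here (0.071 to 0.14) than in *jumu* loss (0.048 to 0.073). With library totals *Su(var)3-7* (FDR 0.31) and *Su(var)2-HP2* (FDR 0.115) lost their calls, as *HP1b* did with a replicate block (FDR 0.11).

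In *jumu* overexpression, 5 genes rose (*Su(var)205*, *HP1b*, *HP1c*, *egg* and *Su(var)2-HP2*) and none fell. The background was 30.1% in either direction and 16.7% higher, and none of the 9 met the relaxed criteria (15.7%). All 3 HP1 genes among the members were in the 5. With library totals in place of TMM none of the 5 passed (FDRs of 0.20 to 0.53), at log2 fold changes of 0.28 to 0.40. The median was 0.24, against 0.01 for all genes. In 6 of the 9 genes, the 5 and *Su(var)3-7*, every sample lay above every wild-type sample, with 28.1% of all genes separated.

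In *CHES-1-like* overexpression, 7 genes fell and 1, *egg*, rose, so that *Su(var)2-HP2* alone did not pass. The background was highest here, at 52.8% in either direction, 25.8% lower and 27.1% higher. The 3 of 9 that met the relaxed criteria, all lower, stand beside 33.1% of all genes in either direction and 16.5% lower. The median was -0.35, against 0.01 for all genes. Samples were separated from wild type in 8 of the 9 genes, 7 below and 1 above, with 44.8% of all genes separated.

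The 16 samples of both single losses, double loss and wild type allowed a test of whether the effect of *jumu* loss differed without *CHES-1-like* (the interaction). Of the 9 genes, 1 passed an FDR of 0.1 and none met the relaxed criteria, against 17.7% (9.81% lower) and 12.2% of all genes. The gene was *Su(var)3-7*, whose interaction term of -0.27 (SE 0.088, FDR 0.058) means a level in double loss below the product of the single effects. The call was lost when any 1 of 6 libraries was left out, namely *jumu*-loss replicate 1 or 3, *CHES-1-like*-loss replicate 2, double-loss replicate 1 or 3 or wild-type replicate 1, at FDRs of 0.10 to 0.13, and also in 1 fit of all 24 samples (0.15) and with upper-quartile factors (0.20), and its sign turned with library totals. For *egg* the term was -0.31 (SE 0.14, FDR 0.18), so that in this fit its lower level in double loss than in *jumu* loss was not shown to be more than the single effects together. Without double-loss replicate 2, *G9a* (FDR 0.063), *Su(var)2-HP2* (0.038) and *Su(var)2-10* (0.027) also passed, each with a negative term. The share of all genes in that refit is not given here.

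The order of the genotypes differed from gene to gene. For *egg* it ran from *CHES-1-like* overexpression (29.8 ± 2.01 CPM) and *jumu* overexpression (26.9 ± 2.09), which overlapped, through *CHES-1-like* loss (22.6 ± 1.30) and wild type (22.8 ± 1.40), which overlapped, down to *jumu* loss (17.2 ± 1.34) and double loss (13.8 ± 2.01 CPM, SD, n = 4 each), which did not. For *G9a* the first 5 genotypes formed a chain of overlapping ranges, with means between 69.8 and 76.3 CPM, and only *CHES-1-like* overexpression (36.9 ± 6.54 CPM) stood apart. *Su(var)205* was highest in *jumu* overexpression (246 ± 22.6 CPM) and lowest in *CHES-1-like* overexpression (132 ± 16.8 CPM). *CHES-1-like* overexpression was also the lowest genotype for *HP1b*, *HP1c*, *Su(var)3-9* and *Su(var)2-10*, and double loss the lowest for *egg*, *Su(var)3-7* and *Su(var)2-HP2*.

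Replicates of a genotype also differed from each other in a shared way. After the mean of each genotype was taken off, *G9a* and *Su(var)2-HP2* followed each other closely over the 24 samples (Pearson r = 0.98), although with the genotype differences left in their r was 0.12. *G9a* and *Su(var)205* had an r of 0.91 within genotypes, and *Su(var)205* and *HP1b* 0.86. *Su(var)3-9* ran against *Su(var)2-HP2* (r = -0.88) and *egg* against *G9a* (r = -0.68). These values describe the same 24 libraries, which share their depth and cell mix across genes.

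The library behind the high values was the same one each time. *G9a* and *Su(var)2-HP2* were both highest in replicate 1 of *jumu* loss, of *CHES-1-like* loss, of both overexpressions and of wild type, and in replicate 2 of double loss. In each genotype the same library had the highest summed level of 10 neural and glial markers, of 10 mesoderm markers and of the epidermis and ectoderm markers. It was also highest in endoderm markers in every genotype but *CHES-1-like* loss. The epidermis and ectoderm sum in double loss was 531 CPM in replicate 2 and 364 to 376 CPM in the others. In double loss the neural sum was 586 CPM in replicate 2 and 284 to 294 CPM in the other 3. In *CHES-1-like* overexpression it was 535 CPM in replicate 1 and 305 to 341 CPM in the others, and in *jumu* overexpression 489 CPM in replicate 1 and 298 to 365 CPM in the others. In wild type all 4 lay between 343 and 381 CPM. The part of these libraries' cell content in the levels of the 9 genes was not tested.

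With these 6 libraries left out of the fits, a choice made after seeing the data, the relaxed criteria were met by 3 members in double loss, by 2 in *CHES-1-like* overexpression and by none elsewhere. The third in double loss was *Su(var)3-7* (log2 fold change -0.51), and the one no longer past the criteria in *CHES-1-like* overexpression was *Su(var)3-9* (-0.46). *G9a* was at -1.03 in *CHES-1-like* overexpression, *egg* at -0.64 and *Su(var)2-HP2* at -0.67 in double loss. *Su(var)2-HP2* in *CHES-1-like* overexpression (-0.14) and *Su(var)205* in double loss (-0.10) took the opposite sign. For the interaction, *egg* (FDR 0.038), *G9a* (0.066), *Su(var)2-HP2* (0.045) and *Su(var)2-10* (0.068) then passed beside *Su(var)3-7*, all with negative terms. The shares of all genes that passed in these refits are not given here, so these counts of members have no background beside them.

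**Figure D3:**
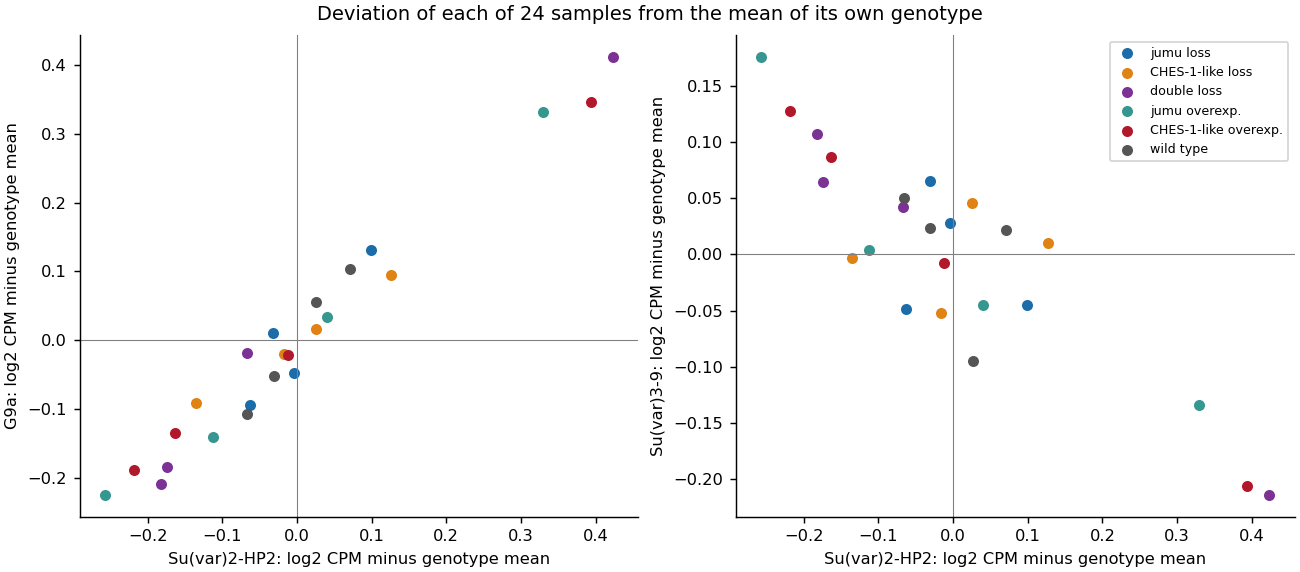
Log2 CPM of each sample minus the mean of its own genotype, for *Su(var)2-HP2* against *G9a* on the left and against *Su(var)3-9* on the right. Each point is 1 of 24 samples, coloured by genotype. *G9a* rises with *Su(var)2-HP2* (r = 0.98) and *Su(var)3-9* runs against it (r = -0.88), and the 3 points farthest to the right are double-loss replicate 2 and replicate 1 of both overexpressions.

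Among the genes kept by the filter, the gene whose log2 CPM was most like each member over the 24 samples was found by Pearson's r. For *Su(var)205* it was *Klp10A*, which encodes a microtubule-depolymerising kinesin (r = 0.97). *Su(var)3-7* was most like *mud* (r = 0.95), the gene of a spindle-orienting protein, and *Su(var)2-HP2* most like *cnn* (r = 0.94), that of a centrosome protein. *G9a* was most like *psq* (r = 0.97), *Su(var)3-9* like *CG6218* (r = 0.97), *egg* like *Non1* (r = 0.96), *Su(var)2-10* like *Mmp2* (r = 0.96), *HP1b* like *homer* (r = 0.95) and *HP1c* like *CG15107* (r = 0.91).

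Levels of cell-division genes also differed between the genotypes, though not always as those of the members did. In double loss the median log2 fold change of the G2 and mitosis genes was -0.39, where that of the 9 members was 0.01. The summed level of 12 genes of G2 and mitosis was 1344 to 1409 CPM in *jumu* loss, 1876 to 1930 CPM in *CHES-1-like* loss, 1414 to 1736 CPM in double loss, 2052 to 2132 CPM in *jumu* overexpression and 1027 to 1132 CPM in *CHES-1-like* overexpression, against 1732 to 1766 CPM in wild type. The sum of 11 S-phase genes was 292 to 299 CPM in *jumu* loss, 305 to 316 CPM in *CHES-1-like* loss, 266 to 315 CPM in double loss, 413 to 446 CPM in *jumu* overexpression and 229 to 257 CPM in *CHES-1-like* overexpression, against 305 to 320 CPM in wild type. In *jumu* loss and in *CHES-1-like* overexpression both sums lay wholly below wild type, and in *jumu* overexpression both lay wholly above it. The part of cell division in the levels of the 9 genes was not tested.

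Markers of other cell types moved with the genotypes as well. The summed level of 7 hemocyte (blood cell) markers was 722 to 759 CPM in *jumu* loss, 938 to 972 CPM in *CHES-1-like* loss, 509 to 539 CPM in double loss, 604 to 687 CPM in *jumu* overexpression and 453 to 520 CPM in *CHES-1-like* overexpression, against 773 to 823 CPM in wild type. This sum lay above wild type in *CHES-1-like* loss and below it in the other 4. Single hemocyte markers did not all follow it, and *Pxn* alone averaged 438 CPM in wild type. In *jumu* loss 5 of 6 tested markers rose and 1 fell (median log2 fold change 0.28), where 22.2% of all genes rose. *Hml* and *NimC1* (0.176 CPM in wild type) were higher past the relaxed criteria in *jumu* loss, double loss and *jumu* overexpression. *Pxn* was lower past these criteria in double loss and both overexpressions. The sum of 6 epidermis and ectoderm markers was 295 to 380 CPM in *CHES-1-like* overexpression, against 472 to 497 CPM in wild type, and overlapped wild type in both single losses. In double loss replicate 2 lay above wild type (531 CPM) and the others below it (364 to 376 CPM). In *jumu* overexpression replicate 1 lay above it (501 CPM) and the others below it (384 to 413 CPM). Past the relaxed criteria in double loss, *crb*, *grh* and *ovo* were lower and *rho* higher, beside 12.8% and 11.9% of all genes. In *jumu* overexpression 4 of the 6 fell and 1 rose, beside 13.4% and 16.7%. The sum of 3 tracheal markers was 102 to 108 CPM in *jumu* loss, 87.1 to 93.1 CPM in double loss, 41.4 to 42.6 CPM in *jumu* overexpression and 38.2 to 42.3 CPM in *CHES-1-like* overexpression, against 51.4 to 55.7 CPM in wild type, which *CHES-1-like* loss overlapped. Of these markers only *btl* passed an FDR of 0.1 in *jumu* loss, at 63.4 CPM against 10.5 CPM in wild type. *trh* was at 11.1 CPM there, against 11.2 CPM. In double loss *btl* had 56.3 CPM and *trh* fell (log2 fold change -0.67). The list medians were -0.03 in *jumu* loss and -0.28 in double loss. The sum of 4 endoderm markers was 51.4 to 57.0 CPM in *jumu* loss, 35.1 to 43.0 CPM in *CHES-1-like* loss, 64.7 to 82.4 CPM in *jumu* overexpression and 33.04 to 43.0 CPM in *CHES-1-like* overexpression, against 44.7 to 50.5 CPM in wild type, which double loss overlapped. The sum of 10 neural and glial markers was 332 to 420 CPM in *jumu* loss and 271 to 320 CPM in *CHES-1-like* loss. The latter lay below wild type (343 to 381 CPM), and 8 of the 10 fell there, beside 16.3% of all genes. For 7 germ line and maternal markers the sum was 60.6 to 66.7 CPM in *jumu* overexpression, against 55.6 to 58.2 CPM in wild type. In double loss it was 48.1 CPM in replicate 2 and 60.7 to 65.5 CPM in the others, and the remaining genotypes overlapped wild type. The part of other cell types in the levels of the 9 genes was not tested.

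Further genes of the same pathways were taken from 6 lists of 65 genes, of which 63 passed the filter on low expression. The relaxed criteria were met by 1 of these genes higher and 4 lower in *jumu* loss, 2 higher and 0 lower in *CHES-1-like* loss, 0 higher and 7 lower in double loss, 3 higher and 2 lower in *jumu* overexpression and 2 higher and 16 lower in *CHES-1-like* overexpression. These are 7.94%, 3.17%, 11.1%, 7.94% and 28.6% of the 63, each below the share of all genes in either direction in the same comparison given above. By direction, the 16 lower of 63 in *CHES-1-like* overexpression are a larger share than the 16.5% of all genes lower there. The 2 higher of 63 are a smaller share than the 16.7% of all genes higher.

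Among 13 tested genes of the HP1 family and HP1 partners, 8 fell and 1 rose in *jumu* loss, where 21.6% of all genes fell and 43.8% passed in either direction, with a median log2 fold change of -0.22. *HP6*, an HP1-family gene with a chromoshadow domain, was low throughout, at 0.601 ± 0.034 CPM in *jumu* loss, 0.264 ± 0.194 CPM in double loss and 0.921 ± 0.430 CPM in *jumu* overexpression, against 1.68 ± 0.232 CPM in wild type (SD, n = 4 each). It fell by 1.47, 2.50 and 0.78 on the log2 scale in these 3 genotypes. *HP4*, whose product binds HP1a, rose in *jumu* overexpression to 49.7 ± 2.06 CPM, against 30.2 ± 2.59 CPM in wild type (log2 fold change 0.72, FDR below 0.1). *rhi*, the HP1 homologue of germline piRNA clusters, had 6.14 CPM in *CHES-1-like* loss and 1.19 CPM in *CHES-1-like* overexpression, against 3.09 CPM in wild type (log2 fold changes 0.91 and -1.42). *rhi* was also lower past the relaxed criteria in *jumu* loss (-1.35), double loss (-0.92) and *jumu* overexpression (-0.58). *HP1D3csd* had 1.46 CPM in *jumu* loss and 0.894 CPM in *CHES-1-like* overexpression, against 0.589 CPM in wild type (log2 fold changes 1.23 and 0.63). The strongest interaction on this list that met the relaxed criteria was that of *Caf1-180*, the large subunit of the CAF-1 histone chaperone (-0.80).

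Among 11 genes that add or remove marks at H3 lysine 9 and related sites, 6 fell and 2 rose in *CHES-1-like* overexpression, where 25.8% of all genes fell and 27.1% rose, with a median of -0.20. *Rpd3*, the histone deacetylase HDAC1 and itself a modifier of variegation, had 52.8 ± 1.54 CPM there, against 102 ± 2.11 CPM in wild type, and fell by 0.93, though its exons overlap those of *CR45438*. *JIL-1*, the kinase of serine 10 of histone H3 that counters heterochromatin spreading, fell by 0.50 in double loss, to 109 ± 25.3 CPM, against 155 ± 5.96 CPM in wild type. In *jumu* loss 4 genes of this list fell and none rose (21.6% of all genes fell), and in *CHES-1-like* loss 5 rose and none fell (20.1% of all genes rose), none of them past the relaxed criteria.

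Of 10 satellite and heterochromatin proteins, 6 fell and 2 rose in *CHES-1-like* overexpression, 5 and 1 of them past the relaxed criteria, which 16.5% of all genes met lower and 33.1% in either direction, with a median of -0.36. *Dsp1*, an HMG-box gene, fell by 0.93, to 204 ± 27.3 CPM, against 394 ± 16.5 CPM in wild type. *vig* rose by 1.10, to 668 ± 164 CPM, against 317 ± 15.2 CPM. *Parp*, the poly(ADP-ribose) polymerase gene, fell by 0.65 in *jumu* loss, and the insulator gene *su(Hw)*, which overlaps *CG3259*, rose by 0.51 in *CHES-1-like* loss and fell by 0.52 in *CHES-1-like* overexpression. Among the 6 SUMO pathway genes, in which *Su(var)2-10* acts, *Uba2*, a subunit of the SUMO-activating enzyme, had 48.7 ± 1.05 CPM in *jumu* loss, 46.6 ± 3.16 CPM in double loss and 107 ± 11.5 CPM in *jumu* overexpression, against 73.8 ± 3.34 CPM in wild type. Its log2 fold changes were -0.58, -0.65 and 0.54, all past the relaxed criteria, and its exons overlap those of *CdsA*. In *jumu* overexpression 4 of these 6 genes rose and none fell, where 16.7% of all genes rose, with a median of 0.38.

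The next list held the opposing Trithorax group and enhancers of variegation. Of 10 genes, 7 fell and 1 rose in double loss, where 18.8% of all genes fell and 19.1% rose, with a median of -0.28, and 6 fell and 1 rose in *CHES-1-like* overexpression, with a median of -0.29. In double loss *osa*, a subunit of the Brahma remodelling complex, fell by 0.61, to 204 ± 3.60 CPM, against 313 ± 11.6 CPM in wild type, and had an interaction of -0.56. It also fell by 0.55 in *CHES-1-like* overexpression. *Snr1*, another Brahma subunit, fell by 0.70 in *CHES-1-like* overexpression. Of 13 Polycomb group genes, which keep developmental genes silent through a different histone mark, 10 fell and 1 rose in *CHES-1-like* overexpression, beside 25.8% and 27.1% of all genes. Past the relaxed criteria were 5 of the 10, beside 16.5% of all genes lower, and the median was -0.28. *esc*, the gene of a subunit of the Polycomb methyltransferase complex, fell most, by 0.79.

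**Figure D4:**
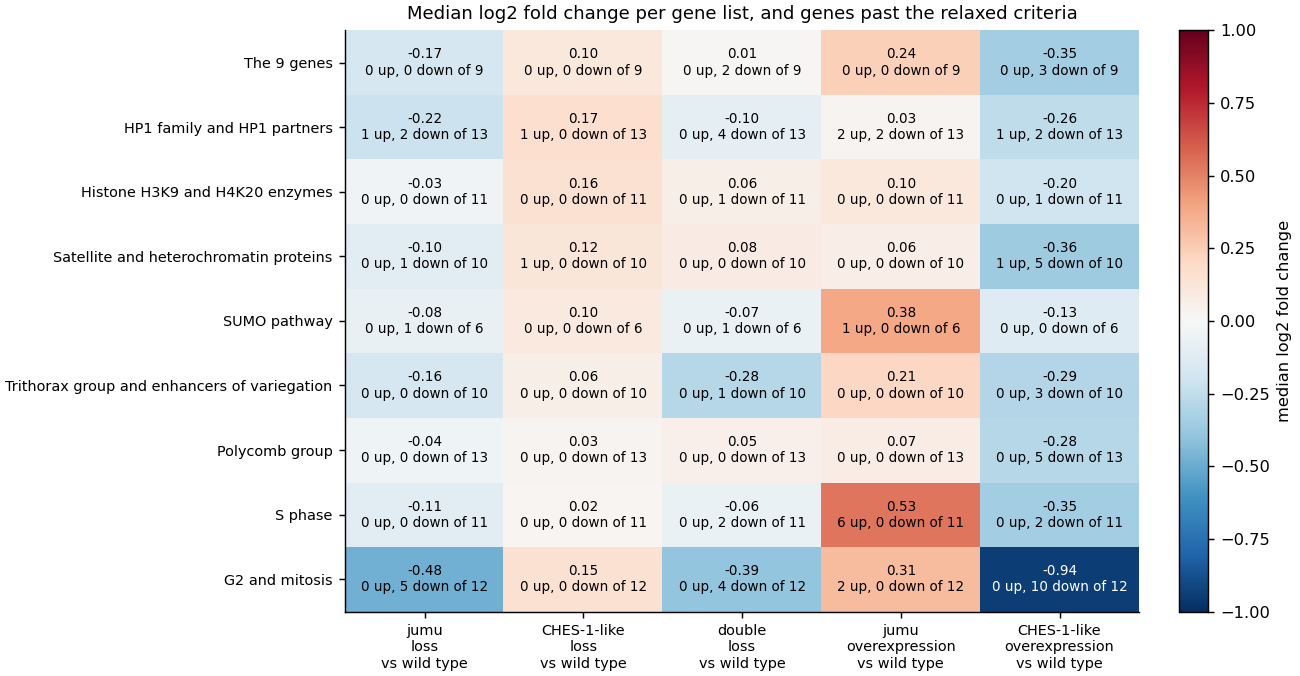
Median log2 fold change (colour and upper number) of the 9 genes, of 6 lists of related genes and of S-phase and mitosis genes in each genotype against wild type, with the number past the relaxed criteria in each direction of those tested. The G2 and mitosis row is the darkest in *CHES-1-like* overexpression, at -0.94, where the 9 genes have a median of -0.35.

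Scaling bore on some of these directions. TMM scaling sets the bulk of genes near 0, and scaling by library totals instead put the median of all genes at -0.18 in *jumu* loss, -0.56 in *CHES-1-like* loss and 0.34 in double loss on the log2 scale. The share of higher calls among all genes at the relaxed criteria was then 31.3% in *jumu* loss, 4.07% in *CHES-1-like* loss and 81.7% in double loss, beside 50.7%, 40.5% and 48.2% with TMM. Taken relative to these medians, *Su(var)2-HP2* was at -0.44 in *jumu* loss, *HP1b* at 0.35 in *CHES-1-like* loss and *egg* at -0.73 in double loss. Relative to library totals all 8 members above 0 in *CHES-1-like* loss turned negative, and the 5 rises in *jumu* overexpression no longer passed. Neither scaling measures the absolute amount of RNA.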

How the data were processed

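The deposited file is 1 table of whole-number counts per gene. Per the study's methods, the authors made stranded total RNA libraries and mapped the reads with TopHat2 to Release 6 of the genome. The submitters' processing notes name HTSeq and SAMtools, and the counting settings were not given in the sources used here. The table is not normalized. All 24 columns were matched to samples by name, and genotypes and replicate numbers were taken from the labels. No 2 of 36 replicate pairs agreed within sampling noise.

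Each genotype was fitted against wild type over 8 samples in R 4.3.3 with edgeR 4.0.16. All genes entered the TMM factors. Genes that had a count of at least 1 were fitted, p-values were adjusted by Benjamini and Hochberg's method over 17476 genes, and afterwards the 30% lowest in average log2 CPM were dropped. The interaction used 16 samples. SEs were derived from the F statistics, approximate 95% intervals are 1.96 SE on either side, and log2 CPM for correlations used a prior count of 2. The scripts were tested on simulated data. Depth sets counting precision alone, because a read without a molecular identifier need not be an independent molecule.

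All 9 members are named. From each list and comparison, the gene with the most positive and the one with the most negative change past the relaxed criteria are named, with the gene most like each member and those overlapping one. Exon lengths and positions come from Ensembl release 115 of the same assembly. The members and lists were chosen with earlier results of these data known. Same-numbered samples of a genotype and wild type deviated together weakly at most (r of -0.10 to 0.15), so the numbers were not taken to pair samples. The highest of these values were those of replicate 1, at 0.12 to 0.15 in every genotype but double loss (-0.04). Alternatives were DESeq2 1.42.0, RLE and upper-quartile factors, library totals, other filters, an FDR of 0.05, 1 fit of 24 samples, a replicate block and omission of every sample in turn.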

Additional observations from a re-analysis of the deposited data

Results flagged for a closer look

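Some single samples lay far from the other 3 of their genotype. *Su(var)205* had 240 CPM in *CHES-1-like*-loss replicate 1 and 194 to 197 CPM in the others, and *HP1b* had 42.4 CPM in the same library and 37.4 to 37.7 CPM in the others. *HP1b* had 27.5 CPM in *CHES-1-like*-overexpression replicate 1 and 22.8 to 23.2 CPM in the others. *HP1c* had 14.8 CPM in *jumu*-loss replicate 4 and 17.1 to 17.3 CPM in the others, *Su(var)3-7* had 69.4 CPM in *CHES-1-like*-loss replicate 2 and 62.8 to 62.9 CPM in the others, and *Su(var)2-10* had 117 CPM in double-loss replicate 2 and 95.6 to 96.1 CPM in the others. *jumu*-overexpression replicate 4 held 67831491 counts in total, and the other 3 had 24128278 to 28799675. These were 7 of 60 groups of 4 samples, and chance alone flags about 1 in 20, or 3.

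In the main fit the effect of *jumu* loss on *Su(var)3-7* differed between cells without and with *CHES-1-like*, with an interaction term of -0.27 (FDR 0.058 by edgeR's quasi-likelihood test). The call was lost when some single libraries were left out, in 1 fit of all 24 samples (FDR 0.15) and with upper-quartile factors (0.20). Its sign turned with library totals (0.78).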

How the results depend on the processing

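Scaling by library totals moved most values, since it moved the median of all genes. The relaxed criteria were then met by 2 members in *jumu* loss and 2 in *CHES-1-like* loss, all lower, by 1 in double loss (*HP1b*, higher) and by 9 for the interaction, against 0, 0, 2 and 0 with TMM. Of all genes, 919 were then higher and 2014 lower in *jumu* loss, and 266 and 6269 in *CHES-1-like* loss. In double loss 3678 were higher and 825 lower, and for the interaction 9584 and 170, where 12233 genes were tested in the main fits. The 9 members of the interaction thus moved with most genes. Signs turned in *jumu* loss for *Su(var)3-9* (-0.18) and *G9a* (-0.16), and in double loss for *HP1c* (0.29). In *CHES-1-like* loss they turned for *Su(var)205* (-0.47), *HP1b* (-0.21), *HP1c* (-0.44), *Su(var)3-9* (-0.41), *G9a* (-0.41), *Su(var)3-7* (-0.41), *Su(var)2-HP2* (-0.55) and *Su(var)2-10* (-0.45). For the interaction they turned for *Su(var)3-9* (0.92), *egg* (0.74), *G9a* (0.95), *Su(var)3-7* (0.78), *Su(var)2-HP2* (0.96) and *Su(var)2-10* (0.89), where the median of all genes was 1.07 and 98.3% of calls were higher, against 49.1% with TMM. No rise in *jumu* overexpression passed an FDR of 0.1 under library totals.

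With each sample left out in turn, 1 to 2 members met the relaxed criteria in double loss, 2 to 3 in *CHES-1-like* overexpression and 0 in the other comparisons. For these refits, and for the replicate block below, the share of all genes is not given here. *Su(var)205* in double loss ranged from -0.12 (without double-loss replicate 2) to 0.15, and *Su(var)2-HP2* in *CHES-1-like* overexpression from -0.17 (without replicate 1) to 0.078. Leaving out the library highest in neural markers in each genotype put them at -0.10 and -0.14. The cause was not tested.

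The fit with a replicate block left the counts of members at the relaxed criteria at 2 in double loss, 3 in *CHES-1-like* overexpression and 0 elsewhere. At an FDR of 0.1 it lost *HP1b* in double loss (FDR 0.11) and gained *HP1c* in *jumu* loss (0.053) and *Su(var)3-9* (0.076) and *Su(var)3-7* (0.080) in *jumu* overexpression. Over the 54 values, the alternatives other than library totals and the omission of single samples gave 448 of 486 on the same side of the test. One of them, keeping the genes of low expression, leaves the fit and FDR of each member unchanged, so its 54 values could not differ. The 486 also include the fits without the libraries highest in neural markers.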
